A study of Mus musculus with 4 samples.

Results

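The colony-stimulating factors and their receptors were followed as 9 of the 55356 genes in the deposited expression table, selected by gene name. They comprised the 4 ligands *Csf1* (M-CSF), *Csf2* (GM-CSF), *Csf3* (G-CSF) and *Il34* (IL-34) and the 5 receptor chains *Csf1r*, *Csf2ra*, *Csf2rb*, *Csf2rb2* and *Csf3r*. RNA was sequenced from immortalized bone marrow-derived macrophages (BMDMs) of *MK2*-KO mice in 4 libraries, with 1 library per condition. All 4 libraries shared the deletion of *MK2*, a kinase downstream of p38, and the immortalization. The control line had been virally transduced with an empty vector encoding GFP (i*MK2*-KO +*GFP*, +*GFP* cells below) and the rescued line with *MK2* (i*MK2*-KO +*MK2*, +*MK2* cells below), and both had been sorted on the GFP signal. Both lines were sequenced without stimulus (UT) and after 1 h with 5 ng/mL of murine IL-1α. The labels describe the rescued cells as wild type, although their *MK2* came from the vector. Each genotype was 1 cell line, so genotype and line cannot be told apart, and the study's methods describe its mice only in general, as adults of both sexes, without an age for the donors of these lines. With 1 library per condition there was no spread between replicates and no test, and all comparisons below are of single libraries.

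Colony-stimulating factors are secreted proteins that keep myeloid cells alive and drive their proliferation and maturation. M-CSF and IL-34 both bind the receptor tyrosine kinase CSF1R, on which macrophages depend. GM-CSF binds an α chain, encoded by *Csf2ra*, that pairs with the β common chain encoded by *Csf2rb*, and the mouse has a second β chain gene, *Csf2rb2*, whose product serves the IL-3 receptor. G-CSF binds CSF3R, best known from neutrophils. The cytokine receptors without a kinase domain signal through JAK and STAT proteins. IL-1α is an alarm cytokine that activates NF-κB and p38, and the p38 substrate MK2 is known to act on proteins that bind AU-rich elements in cytokine mRNAs.

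The values are gene counts that the authors divided by a size factor per library (normalized counts). They summed to between 24891906 and 25733071 per library, and between 17840 and 18152 genes had a value above 0. *Mapkapk2*, the gene encoding MK2, had 561 normalized counts in untreated and 1585 in IL-1α-treated +*GFP* cells, and 38357 and 38141 in +*MK2* cells, which matches the labels. Of the 11 macrophage markers, all were detected, and their sum lay between 103831 and 113610. Of these, *Cx3cr1* was at least 2-fold higher and *Mertk* and *Aif1* at least 2-fold lower in +*GFP* cells both before and after IL-1α. *Cd14* was at least 2-fold higher in +*GFP* cells after IL-1α. Of all genes with a mean of at least 10, 3.51% were at least 2-fold higher and 5.26% lower untreated. After IL-1α these shares were 4.16% and 5.57%. Counts were low for *Cx3cr1* (24 and 34 in +*GFP*, 5 and 5 in +*MK2* cells) and *Aif1* (16 and 10, 50 and 58). By less than 2-fold, *Adgre1* (3978 and 4140, 6832 and 6330) and *Fcgr1* (1226 and 1194, 2108 and 2216) were lower in +*GFP* cells. *Ctss* (8013 and 7897, 6214 and 6291) and *Ptprc* (7159 and 7437, 5977 and 5963) were higher there, also by less than 2-fold. Markers of other cells were near 0 except for 3 genes. The 8 fibroblast markers summed to 0 to 2, the 8 lymphocyte markers to 3 to 15 and the 6 mast cell markers to 5 to 14. The 10 neutrophil markers summed to 539, 570, 121 and 112 in the order +*GFP* UT, +*GFP* IL-1α, +*MK2* UT and +*MK2* IL-1α, nearly all of it the protease *Mmp8*, while *Ly6g*, *Mpo* and *S100a9* were at 0 in all libraries. The 6 endothelial markers summed to between 452 and 1004, of which *Vwf* alone gave 452 to 1002. The 6 dendritic cell markers summed to between 21 and 117, mostly *Zbtb46*.

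Of the ligands, only *Csf1* had more than 1 normalized count in any library. It had 1153 normalized counts in untreated +*GFP* cells and 4332 after IL-1α, against 1526 and 1823 in +*MK2* cells. The IL-1α-treated +*GFP* library thus stood apart from the other three, which lay close together. The library of untreated +*GFP* cells was the lowest. In bulk RNA, more cells with a transcript and more transcript per cell cannot be told apart. *Csf2* (listed at chr11:54138097-54140493) was at 0 in all 4 libraries, *Csf3* (chr11:98592089-98594455) had 1 count in IL-1α-treated +*GFP* cells and *Il34* (chr8:111468461-111532556) 1 count in IL-1α-treated +*MK2* cells, with 0 elsewhere. A count of 0 allows for up to 3 counts, so no difference of these 3 ligands was detectable at this depth. The receptor chains were all detected, so that 6 of the 9 genes reached a mean of at least 10 normalized counts over the libraries, as did 12483 genes of the whole table.

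**Figure D1:**
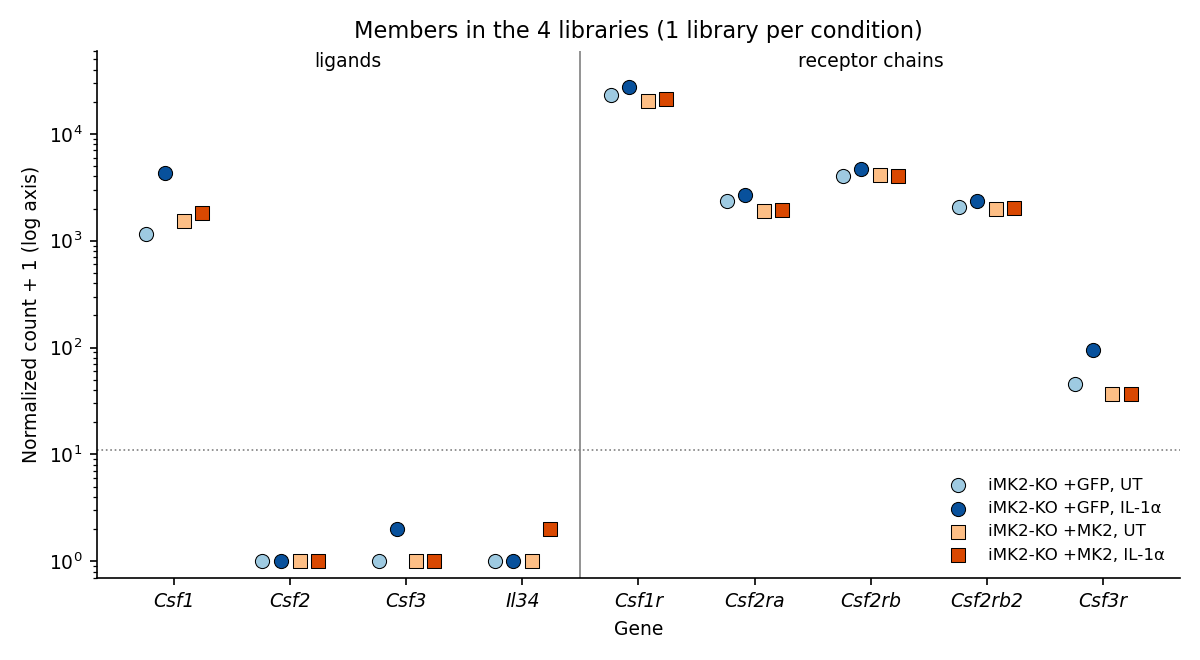
Normalized count plus 1 (log axis) of each ligand and receptor gene in the 4 libraries, 1 point per library. Circles are +*GFP* and squares +*MK2* cells, pale for untreated and dark for IL-1α, and the dotted line marks a count of 10. *Csf1* stands at 4332 in IL-1α-treated +*GFP* cells and between 1153 and 1823 elsewhere, while 3 ligands lie at 0 or 1.

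*Csf1* (ENSMUSG00000014599.11) is placed by the table at chr3:107648364-107667785, on coordinates whose build is not named. Differences between a pair of libraries are log2 ratios of the values plus 1. The interval given with a ratio is at the 95% level (Clopper-Pearson, from the first value's share of the sum), taking 1 normalized count as 1 read, and covers counting error only, not the variation between cultures. In +*GFP* cells the *Csf1* value was 3.75-fold higher with IL-1α (log2 ratio 1.91, interval 1.82 to 2.00). In +*MK2* cells it was 1.19-fold higher (0.26, interval 0.16 to 0.36). The log2 responses differed by 1.65 between the lines, and 159 of the 12483 genes (1.27%) had a difference at least as large. In the untreated state *Csf1* was lower in +*GFP* cells (log2 ratio -0.40, interval -0.52 to -0.29), and after IL-1α it was 2.38-fold higher (1.25, interval 1.17 to 1.328). The order of both lines was therefore opposite before and after IL-1α. As far or farther than *Csf1* in the same direction lay 92 genes (0.737%) in the response of +*GFP* cells and 1015 genes (8.13%) in that of +*MK2* cells.

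Of the 6 measured genes, 2 were at least 2-fold higher after IL-1α in +*GFP* cells, *Csf1* and *Csf3r*, and 0 were lower. Among all 12483 genes with a mean of at least 10, 2.25% were at least 2-fold higher and 1.59% at least 2-fold lower in this comparison. In +*MK2* cells 0 of the 6 were at least 2-fold higher or lower with IL-1α, beside 0.889% (higher) and 1.03% (lower) of all genes. Between the untreated lines 0 of the 6 were at least 2-fold apart, where 3.51% of all genes were higher and 5.26% lower in +*GFP* cells. After IL-1α, 2 of the 6 were at least 2-fold higher in +*GFP* cells, again *Csf1* and *Csf3r*, and 0 were lower, with 4.16% of all genes higher and 5.57% lower. This last comparison and the IL-1α response share the library of IL-1α-treated +*GFP* cells. The median log2 ratio of the 6 genes was 0.13 between the untreated lines, 0.43 between the lines after IL-1α, 0.23 for the response of +*GFP* cells and 0.03 for that of +*MK2* cells, against medians of all genes of 0.02, 0.03, 0.01 and 0.01.

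**Figure D2:**
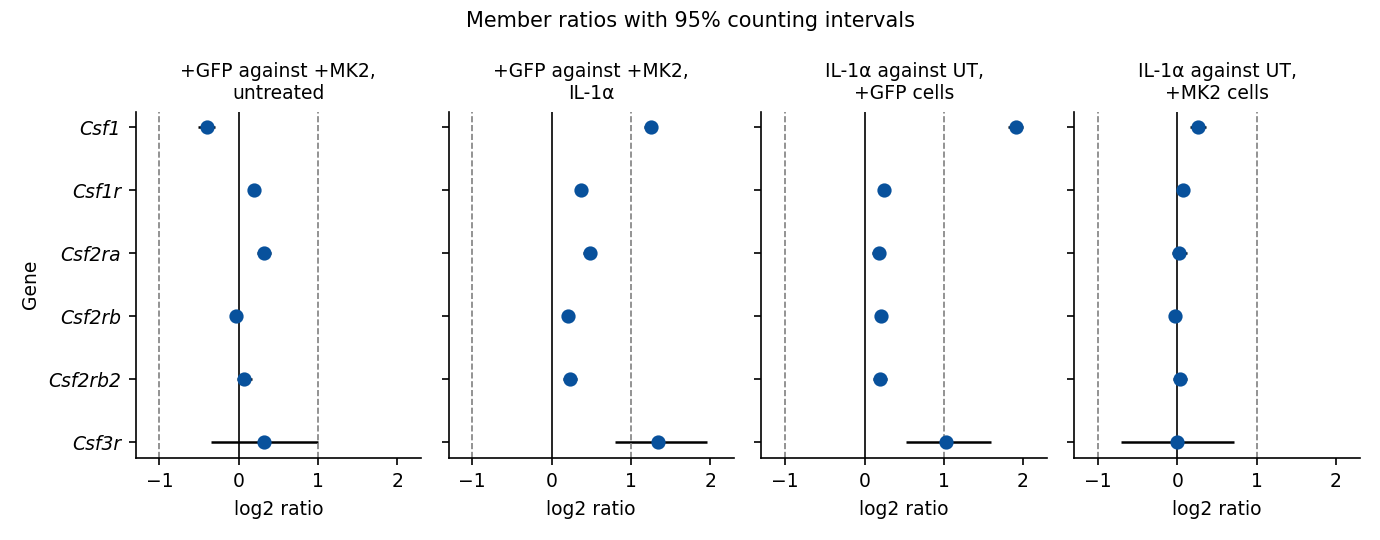
Log2 ratios of the 6 measured genes in the 4 comparisons. Points are ratios of single libraries, horizontal lines their 95% counting intervals and dashed lines mark 2-fold. *Csf1* and *Csf3r* lie beyond the upper 2-fold line in the IL-1α comparison of the lines and in the response of +*GFP* cells, *Csf3r* with the widest intervals.

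The promoter of *Csf1* is shown because NF-κB, which IL-1α activates, binds sites of the κB type. RefSeq promoters (250 bases before to 50 after the gene start) were available here for 5 of the 9 genes, *Csf1*, *Csf2*, *Csf2ra*, *Csf2rb2* and *Csf3r*. The window of *Csf1* lies on the minus strand at chr3:107760420-107760719 of GRCm38.p6, and capitals mark the letters GAAAGTCCC, which are GGGACTTTC on the other strand.
*Csf1* promoter: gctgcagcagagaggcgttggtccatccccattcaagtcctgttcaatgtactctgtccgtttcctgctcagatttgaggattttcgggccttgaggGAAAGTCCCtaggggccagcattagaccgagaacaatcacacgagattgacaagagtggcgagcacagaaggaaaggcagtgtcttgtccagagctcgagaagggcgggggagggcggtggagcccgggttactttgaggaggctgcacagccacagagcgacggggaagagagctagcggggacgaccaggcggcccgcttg

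The marked letters begin at position -153 relative to the gene start. Both strands of 32851 promoters were searched, and 116 of them (0.353%) held GGGACTTTC, among those of the 5 genes only that of *Csf1*. These letters were chosen after the sequences and the response of *Csf1* had been seen. Of 39 genes with these letters and a mean of at least 10, 2 (5.13%) were at least 2-fold higher with IL-1α in +*GFP* cells, *Nfkb2* and *Csf1*. Among the 9067 such genes with any promoter the share was 1.89%, and the medians were 0.06 and 0.02. In +*MK2* cells 0 of the 39 were at least 2-fold higher, beside 0.496%. The share of 5.13% includes *Csf1* itself, after whose response the letters were chosen, so it cannot be read as a result about the letters. A role of these letters in the response was not tested. The wider form GGGNNNNNCC, which overlaps it, was in 50.8% of promoters and in those of *Csf1*, *Csf2*, *Csf2ra* and *Csf3r*. The AP-1 letters TGANTCA (7.81% of promoters) were in none of the 5, and the CRE letters TGACGTCA (1.79%) stood in that of *Csf2ra*, at position -92. A match of letters is a description of the window and does not show binding.

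The ligand mRNAs also differed in AU-rich elements, the stretches with repeats of ATTTA that mark short-lived cytokine mRNAs. For each of 3 ligands, the 30-base window with the most ATTTA in the longest annotated 3′ UTR (GENCODE M21) is given, 5′ to 3′, with ATTTA in capitals. They span bases 2021 to 2050 of 2111 in *Csf1*, 230 to 259 of 317 in *Csf2* and 24 to 53 of 669 in *Csf3*.
*Csf1*: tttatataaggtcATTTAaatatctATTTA
*Csf2*: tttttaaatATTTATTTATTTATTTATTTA
*Csf3*: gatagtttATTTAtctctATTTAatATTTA

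*Csf2* held 9 ATTTA in 317 bases and 4 copies of the longer form TTATTTATT. *Csf3* held 6 ATTTA in 669 bases and *Csf1* 4 in 2111 bases, both without TTATTTATT. *Il34* held 1 in 605 bases and *Csf1r* 3 in 1669. Per 1000 bases this was 28.4 for *Csf2*, 8.97 for *Csf3*, 1.89 for *Csf1* and 1.65 for *Il34*, against a median of 1.26 over the 20717 genes with a 3′ UTR. The 3′ UTRs of *Csf2ra*, *Csf2rb*, *Csf2rb2* and *Csf3r* held no ATTTA. The longer form was present in 7.67% of genes, and 68 genes (0.328%) held at least 4 copies. Of the 6 genes whose products bind AU-rich elements, 5 had a mean of at least 10. *Zfp36*, which encodes the mRNA-destabilizing protein tristetraprolin, had 641 normalized counts in untreated and 2569 in IL-1α-treated +*GFP* cells, and 788 and 814 in +*MK2* cells. Its response had a log2 ratio of 2.00 in the former and 0.05 in the latter. The related *Zfp36l2* had 3729, 2383, 4238 and 4321, a log2 ratio of -0.65 with IL-1α in +*GFP* cells. *Elavl1*, *Khsrp* and *Hnrnpd* lay between 0.07 and 0.09 there. The median of the 5 was 0.08, and 1 of them, *Zfp36*, was at least 2-fold higher, beside 2.25% of all genes. *Zfp36* was also at least 2-fold higher than in +*MK2* cells after IL-1α (log2 ratio 1.66, median of the 5 0.17), beside 4.16% of all genes. Untreated, 0 of the 5 were so (median -0.18), beside 3.51%.

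Of the receptors, *Csf1r* was the most abundant, and its values differed little between the libraries. *Csf1r* (ENSMUSG00000024621.17) was listed at chr18:61233670-61265221. It had 23227 normalized counts in untreated and 27561 in IL-1α-treated +*GFP* cells, and 20290 and 21305 in +*MK2* cells. Both values of +*GFP* cells were above both values of the rescued cells. The log2 ratio of the lines was 0.20 (interval 0.17 to 0.22) untreated and 0.37 (0.35 to 0.40) after IL-1α, and that of the response 0.25 (0.22 to 0.27) in +*GFP* and 0.07 (0.04 to 0.10) in +*MK2* cells. At counts this high the intervals exclude 0 for small differences, and 1525 genes (12.2%) had at least as large a response in +*GFP* cells. Relative to the length of merged exons, *Csf1r* stood at 4023, 4773, 3514 and 3690 normalized counts per kb in the order +*GFP* UT, +*GFP* IL-1α, +*MK2* UT and +*MK2* IL-1α. *Csf1*, its ligand, stood at 218, 820, 289 and 345 per kb. By this measure the order was *Csf1r*, *Csf2ra*, *Csf2rb*, *Csf2rb2*, *Csf1* and *Csf3r* in 3 libraries. Only in IL-1α-treated +*GFP* cells did *Csf1* move to the third place, between *Csf2ra* (937) and *Csf2rb* (638). The order depends on the merged lengths, which join the exons of all annotated transcripts (7277 bases for *Csf2rb*, 2871 for *Csf2ra* and 5281 for *Csf1*). The transcripts in use were not determined, so the places of *Csf2ra*, *Csf2rb* and *Csf1* are uncertain.

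Other proteins reported to bind IL-34 were measured as well. *Ptprz1* was at 0 in all libraries. *Sdc1*, encoding syndecan-1, had 1194, 1142, 1649 and 1717 normalized counts, and *Trem2* 5549, 5197, 6224 and 6192. Both were lower in the 2 libraries of +*GFP* cells than in those of the rescued cells, by less than 2-fold. Of these 3 genes, 2 had a mean of at least 10, and their median log2 ratio was -0.32 between the untreated lines and -0.42 after IL-1α.

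*Csf3r* was the least abundant of the receptor genes measured. It is listed at chr4:125918343-125938233 and had 45 normalized counts in untreated +*GFP* cells, 93 after IL-1α, and 36 in each library of +*MK2* cells. As for *Csf1*, the IL-1α-treated +*GFP* library was the highest. The response had a log2 ratio of 1.03 (2.04-fold, interval 0.52 to 1.59) in +*GFP* cells and of 0 (interval -0.71 to 0.71) in +*MK2* cells. The difference of the lines was 0.31 (interval -0.34 to 1.00) untreated and 1.35 (0.80 to 1.97) after IL-1α. The response lay just above 2-fold, with the lower bound of its interval under it, and fell below 2-fold with *Gapdh* or total scaling or a pseudocount of 5. Per kb *Csf3r* stood between 9.98 and 25.8. Among the defining neutrophil markers *Ly6g*, *Mpo* and *S100a9* were at 0, and *Elane* between 2 and 5, while *Mmp8* had 530, 563, 115 and 107 normalized counts in the order given above.

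*Csf2ra*, encoding the ligand-binding chain for GM-CSF, is listed at chr19:61212395-61216867. It had 2372 normalized counts in untreated and 2689 in IL-1α-treated +*GFP* cells, and 1897 and 1928 in +*MK2* cells. The values of +*GFP* cells were again above those of the rescued cells, with a log2 ratio of 0.32 (interval 0.23 to 0.41) untreated and 0.48 (0.40 to 0.57) after IL-1α. The response was 0.18 (0.10 to 0.26) in +*GFP* cells, and 0.02 (-0.07 to 0.12) in +*MK2* cells.

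*Csf2rb* had 4006, 4642, 4111 and 4029 normalized counts, and *Csf2rb2* 2062, 2362, 1960 and 2010, in the order +*GFP* UT, +*GFP* IL-1α, +*MK2* UT and +*MK2* IL-1α. For both β chain genes the untreated libraries differed within counting error, with log2 ratios of -0.04 (interval -0.10 to 0.03) and 0.07 (-0.02 to 0.16). The IL-1α-treated +*GFP* library was the highest for both, with a response of 0.21 (0.15 to 0.27) for *Csf2rb* and 0.20 (0.11 to 0.28) for *Csf2rb2*. In +*MK2* cells the response was -0.03 (-0.09 to 0.03) and 0.04 (-0.05 to 0.13). The genes are neighbors, listed at chr15:78209952-78238047 and chr15:78166707-78189921, 20031 bases apart. Their coding sequences, of 2691 and 2637 bases in GENCODE M21, were identical at 2505 of 2631 aligned bases (95.2%) and shared an unbroken run of 242 bases. A read that lies wholly within a shared stretch cannot be assigned to either gene. Aligned coding windows are given as an example (bases 1733 to 1822 of both, 5′ to 3′, with the 5 mismatches in capitals). Their longest identical stretch exceeds 38 bases but is shorter than 75 bases.
*Csf2rb*: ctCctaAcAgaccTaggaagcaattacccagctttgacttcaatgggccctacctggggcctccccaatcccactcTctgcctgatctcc
*Csf2rb2*: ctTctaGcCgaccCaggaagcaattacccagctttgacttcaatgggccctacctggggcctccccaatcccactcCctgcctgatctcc

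Of all 38-base stretches in the *Csf2rb* coding sequence, 33.9% were also present in that of *Csf2rb2*, and of all 75-base stretches 15.8%. These are the read lengths given in the labels and in the study's methods, respectively. The labels describe paired reads, and the second read of a pair was not considered in these shares. Summed over both genes, which does not depend on how reads were split between them, the log2 ratio of the lines was -0.00071 untreated and 0.21 after IL-1α, and the response was 0.21 in +*GFP* and -0.0076 in +*MK2* cells. Of the other members of the β common family, *Il3*, *Il5* and *Il5ra* were at 0 in all libraries. *Il3ra*, the α chain for IL-3, had 19, 13, 31 and 36 normalized counts. It was at least 2-fold lower in +*GFP* than in +*MK2* cells after IL-1α (log2 ratio -1.40), as were 5.57% of all genes.

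**Figure D3:**
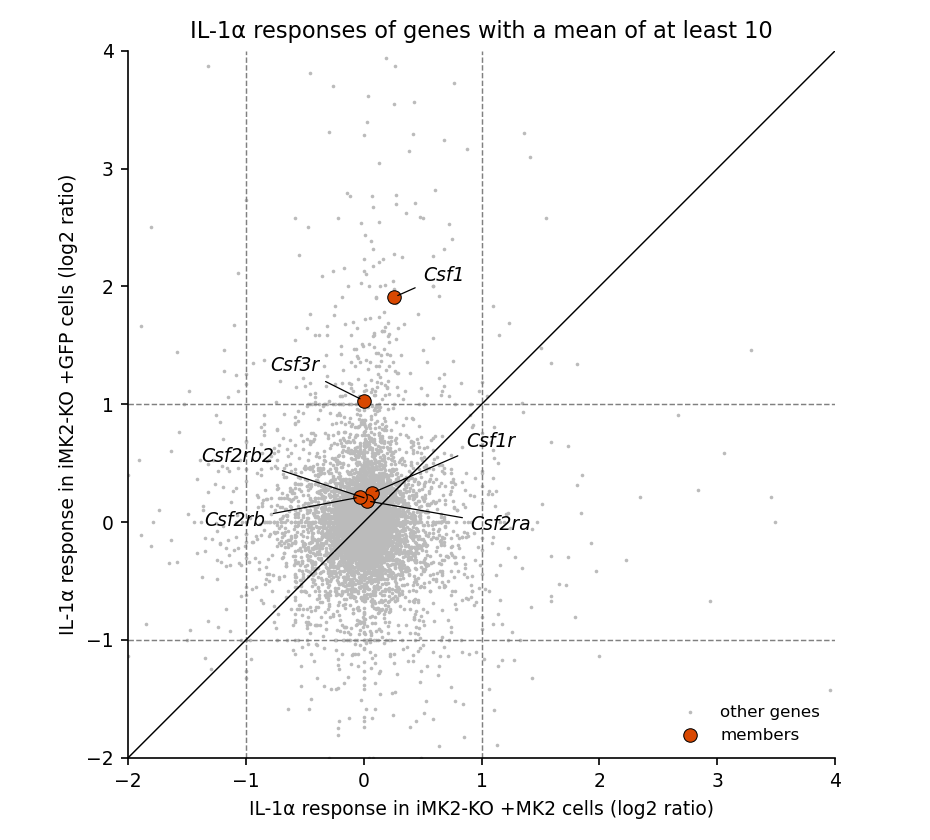
IL-1α response (log2 ratio) of each gene with a mean of at least 10 in +*MK2* cells (x axis) and in +*GFP* cells (y axis). Each point is 1 gene, 12406 genes lie within the axes and 77 outside them, the 6 measured ligand and receptor genes are in orange, dashed lines mark 2-fold and the diagonal marks equal responses. *Csf1* lies at 1.91 on the y axis and 0.26 on the x axis, and *Csf3r* at 1.03 and 0.

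Genes with a like pattern over the 4 libraries were sought by the distance between log2 values, each gene centred on its own mean, among 10884 genes. Closest to *Csf1* were *Ikbke*, an IκB kinase family member (501, 1883, 696 and 749 normalized counts, distance 0.107), the chemokine gene *Ccl3* (1872, 6994, 2558 and 2748, distance 0.112) and the phosphatase gene *Dusp2* (177, 715, 282 and 319, distance 0.197). All 3 were highest in IL-1α-treated and lowest in untreated +*GFP* cells, as was *Csf1*, a likeness by which they had been selected. Closest to *Csf3r* were *Malt1*, *Ccng2* and *Itga5* at distances of 0.147 to 0.169. *Csf3r* reached a value of 50 only in IL-1α-treated +*GFP* cells (93), and its low counts leave its pattern uncertain. Closest to *Csf1r* were *Smad5*, *Med13* and *Mycbp*, closest to *Csf2ra* *Chd4*, *Cyth1* and *Clock*, and closest to *Csf2rb* *Plk3*, *Cox17* and *Snrnp48*. For *Csf2rb2*, the nearest gene was *Spi1* (4782, 5524, 4551 and 4663, distance 0.00999), which encodes the myeloid transcription factor PU.1, followed by *Ash1l* and *Lrch1*. With 4 libraries, genes of nearly constant level lie close to many others.

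The signal transducers of these receptors differed little with IL-1α, as did most genes. Of the 7 JAK and STAT genes, 0 were at least 2-fold apart in any comparison, and the median log2 ratio was -0.01 for the response of +*GFP* cells and 0.07 for that of +*MK2* cells. *Jak2*, the kinase used by the GM-CSF receptor, had 935 and 937 normalized counts in +*GFP* cells and 474 and 509 in +*MK2* cells, a log2 ratio of 0.98 untreated and 0.88 after IL-1α. Of 20 genes that act directly below CSF1R, 0 were at least 2-fold apart after IL-1α in either line. Of all genes, 2.25% were at least 2-fold higher and 1.59% lower with IL-1α in +*GFP* cells, and 0.889% and 1.03% in +*MK2* cells. Counts of 0 are therefore not particular to these lists. Between the lines 0 of the 20 were at least 2-fold higher and 2 were lower in +*GFP* cells, the same genes untreated and after IL-1α. Of all genes, 3.51% were higher and 5.26% lower untreated, and 4.16% and 5.57% after IL-1α. *Cblb*, encoding a ubiquitin ligase, had 599, 614, 1342 and 1389 normalized counts, and the kinase gene *Src* had 12, 14, 28 and 35. The median log2 ratio of the 20 was 0.14 untreated and 0.10 after IL-1α.

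Of 6 genes that restrain JAK and STAT signaling, 3 were at least 2-fold lower in untreated +*GFP* cells, *Socs1*, *Socs2* and *Cish*, beside 5.26% of all genes, and the median log2 ratio was -0.86. *Socs2* had 40, 31, 258 and 276 normalized counts. *Socs1* (3, 3, 18 and 16) and *Cish* (5, 15, 11 and 13) had low counts, and *Cish* lay exactly at 2-fold in the untreated comparison (log2 ratio -1, interval -3.01 to 0.50). The phosphatase gene *Ptpn6* (0.19) and *Pias1* (-0.07) were less than 2-fold apart there. After IL-1α, *Socs3* was at least 2-fold higher and *Socs1* and *Socs2* lower than in the rescued cells, with a median of 0.14. Of all genes, 4.16% were higher and 5.57% lower in that comparison. In the response of +*GFP* cells, 2 of the 6 were at least 2-fold higher, *Socs3* and *Cish*, beside 2.25% of all genes, with a median of 0.06. *Socs3*, the inhibitor that binds the G-CSF receptor, had 110 normalized counts in untreated and 1167 in IL-1α-treated +*GFP* cells, against 182 and 185 in +*MK2* cells. Its log2 response was 3.40 in the former and 0.02 in the latter. In +*MK2* cells 0 of the 6 were at least 2-fold apart with IL-1α, beside 0.889% (higher) and 1.03% (lower) of all genes.

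Membrane-bound M-CSF and CSF1R are both cut by the protease ADAM17, whose maturation needs an iRhom protein. *Adam17* had 3141, 4326, 2138 and 2409 normalized counts, and the iRhom gene *Rhbdf2* 951, 1701, 759 and 811. *Rhbdf2* was at least 2-fold higher in +*GFP* than in +*MK2* cells after IL-1α (log2 ratio 1.07), as were 4.16% of all genes. Its response in +*GFP* cells was 0.84. *Adam10* was between 4127 and 5451, and the other two of the 5 genes in this list, *Timp3* at 0 and *Rhbdf1* at 2 to 8, did not reach a mean of 10. The median of the 3 measured genes was 0.40 between the untreated lines, 0.84 after IL-1α, 0.46 for the response of +*GFP* cells and 0.10 for that of +*MK2* cells.

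Of 8 transcription factor genes known to act on *Csf1r* or in macrophage differentiation, 7 had a mean of at least 10, and *Myb* was at 0. *Cebpa* and *Maf* were at least 2-fold lower in +*GFP* cells both untreated and after IL-1α, beside 5.26% and 5.57% of all genes. *Maf* had 34, 25, 1546 and 1298 normalized counts, and *Cebpa* had 19, 20, 431 and 415. *Csf1r* itself had 23227 and 27561 normalized counts in +*GFP* cells and 20290 and 21305 in +*MK2* cells. Whether its level depends on these factors was not tested. *Ets2* was at least 2-fold higher with IL-1α in +*GFP* cells, as were 2.25% of all genes. It had 1967 and 5054 normalized counts there (log2 ratio 1.36), against 1596 and 1893 in +*MK2* cells (0.25). The median of the 7 genes was 0.07 between the untreated lines, 0.24 after IL-1α, 0.19 for the response of +*GFP* cells and 0.04 for that of +*MK2* cells.

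**Figure D4:**
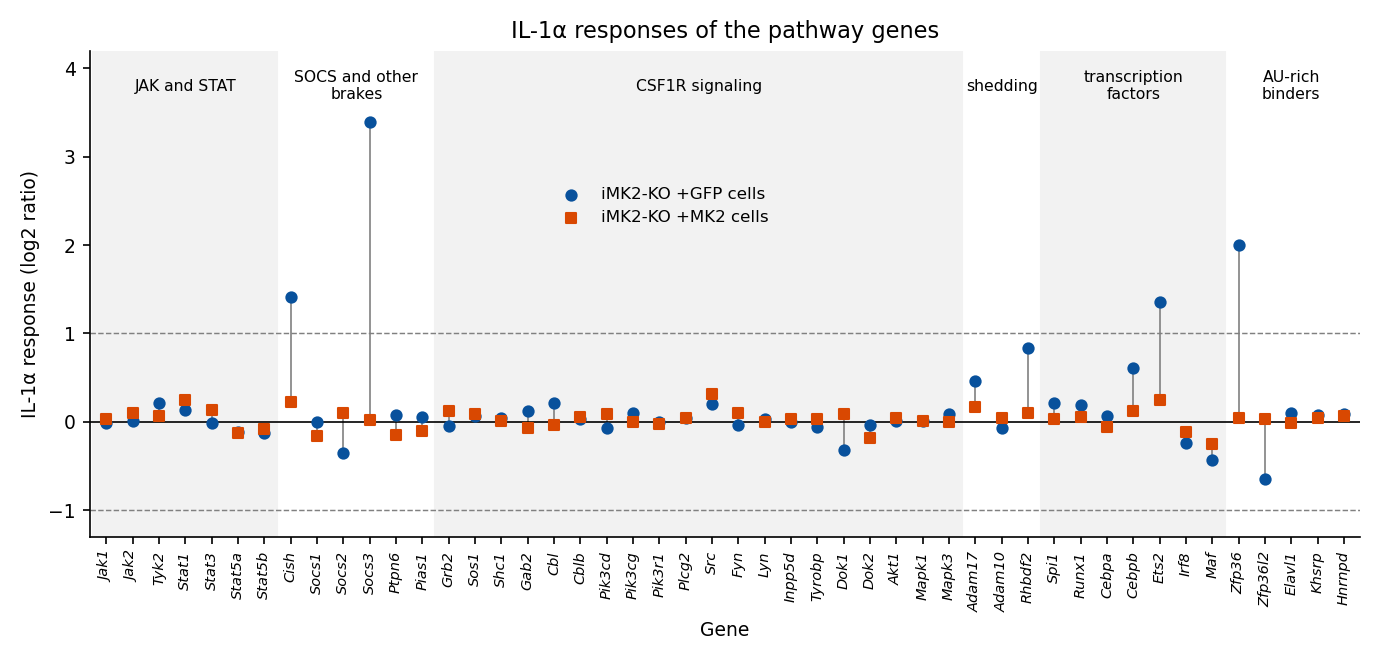
IL-1α response (log2 ratio) of the measured genes of the pathway lists in +*GFP* (blue circles) and +*MK2* cells (orange squares), 1 column per gene, with dashed lines at 2-fold. *Socs3* (3.40), *Zfp36* (2.00), *Cish* (1.42) and *Ets2* (1.36) lie above the 2-fold line in +*GFP* cells, and no gene does in +*MK2* cells.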

How the data were processed

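The authors deposited 1 table with 55356 genes and 1 score per gene and library, counts normalized with DESeq2 and rounded. The column names hold a salmon file name, and GRCm38 is named in the submitters' processing notes. Tool versions, annotation and size factors are not given in the sources used here. Of 52080 gene IDs shared with GENCODE M21 (GRCm38), only 1747 started within 1 base of the table's position, so its coordinates are printed without a build. The labels describe poly(A) selection and stranded paired reads of 38 bases, the paper 1 × 75 bp single reads after ribo-depletion.

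The values were used as deposited. No p-value was computed. Differences are log2 ratios with a pseudocount of 1, 2-fold calls were counted where the mean over the libraries was 10 or more, and intervals are 95% Clopper-Pearson intervals (scipy 1.17.1, Python 3.11.15), tested on simulated data. The size factors, and thus the reads per normalized count, are unknown, so that intervals are approximate. Levels per kb use merged exons of GENCODE M21. Named are all 9 genes, list genes at least 2-fold apart or needed for a statement, and the 3 nearest genes in pattern. The members, the 17 lists (125 entries, all found; 2 further genes are not reported here) and the motifs were chosen with earlier results of these data known. Pseudocounts, scalings, fold limits, minimum means and reads per count were varied.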

Additional observations from a re-analysis of the deposited data

Results flagged for a closer look

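Of 73 genes among the ligands, receptors and lists that had a mean of at least 10, 1 had IL-1α responses in opposite directions in both lines, each beyond counting error. *Ptpn6*, encoding the phosphatase SHP-1, went from 6467 to 6803 normalized counts with IL-1α in +*GFP* cells (log2 ratio 0.07, interval 0.02 to 0.12) and from 5659 to 5113 in +*MK2* cells (log2 ratio -0.15, interval -0.20 to -0.09). The responses differed by 0.22, and this difference was not tested, as there was 1 library per condition. None of the 9 ligand and receptor genes was among these. A search for single outlying samples within a group needs at least 4 libraries per condition and was not possible here.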

How the results depend on the processing

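Scaling, pseudocount, fold limit, minimum mean and reads per count were varied, and 181 of 206 recomputed values stayed within their counting interval or, for counts and shares, within 1.5 times, while 25 moved further. No ratio at or beyond 2-fold changed direction. The count of members at least 2-fold apart after IL-1α in +*GFP* cells was 2, and 1 (*Csf1*) with a pseudocount of 5, with scaling to the total, with scaling to *Gapdh* and at a limit of 3-fold. At 3-fold, the count between the lines after IL-1α was 0. With no minimum mean that count was 4 and the count for the response of +*MK2* cells 1, the additional genes being *Csf3* and *Il34* with values of 0 and 1. The difference of the *Csf1* responses lay between 1.61 and 1.65 under all pseudocounts and scalings. Under *Gapdh* scaling the log2 ratio of *Csf1* between the lines after IL-1α was 1.15. It was 0.27 for *Csf1r*, 0.38 for *Csf2ra*, 0.10 for *Csf2rb* and 0.13 for *Csf2rb2*. All of these lay below the counting intervals of the unscaled ratios, while that of *Csf3r* (1.24) stayed within its interval. The medians of all genes under this scaling lay between -0.07 and 0.01. The share of all genes at least 2-fold apart for the response of +*MK2* cells was 1.92% and fell to 0.397% when the mean had to reach 50. Over the 21626 genes above 0 in any library it was 19.9%. No paired analysis was possible because each condition had 1 library. The depth of 1 library per condition limits the ratios of *Csf3r* most, and *Csf2*, *Csf3* and *Il34* were too low for any ratio.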
